A study of Aspergillus niger with 8 samples.

Results

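Of the 15431 genes counted in Aspergillus niger, 119 (0.771%), called the module below, passed a rule that asked for more transcript in every glucose and wheat straw library than in any library of mycelium moved to medium without a carbon source. The genes were chosen by their measured values. Counts of each library were divided by its reads on genes and expressed per 1000000 reads (CPM), 5 was added, and a gene was taken when the lowest of the 4 glucose and straw libraries was at least 2 times the highest of the 4 starvation libraries. That ratio is called the margin below. The rule asked for a level on straw above that of starvation, not for the same level as on glucose. Because it used every contrast between starvation and the glucose or straw cultures, those contrasts are given as a description and support nothing here. Tests were made of 6 h straw against 48 h glucose and of 24 h against 6 h of starvation, neither of which the rule compared.

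The samples were 8 RNA-Seq libraries of strain N402, with duplicate flask cultures A and B in each of 4 conditions. Mycelium was grown for 48 h on glucose and sampled (48 h glucose), or was then filtered, washed and moved to fresh medium. The new medium held ball-milled wheat straw for 6 h (6 h straw) or had no carbon source for 6 h or 24 h (6 h starvation and 24 h starvation). All cultures thus shared the 48 h on glucose, and only the glucose cultures were spared washing and transfer. With 2 cultures per condition, the p-values measure the spread between these duplicates only.

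Filamentous fungi take up nitrate and reduce it through nitrate and nitrite reductase to ammonium, which glutamate dehydrogenase joins to a carbon skeleton from the citric acid cycle. Ergosterol, the main sterol of fungal membranes, is made by a long series of steps, only some of which require oxygen. The respiratory chain of fungi has, beside cytochrome c oxidase, an alternative oxidase that passes electrons straight from ubiquinol to oxygen. All of these pathways are represented among the 119 genes.

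Reads on genes numbered 205778 to 979256 per library, 1.41 to 3.40% of all reads, with the lowest total in 24 h starvation B. That share was 2.97 and 2.99% on glucose, 1.97 and 3.40% on straw, 1.47 and 1.79% after 6 h and 2.04 and 1.41% after 24 h of starvation, and its part in the results below was not tested. The summed CPM of 7 conidiation genes (brlA, abaA, wetA, brnA, ctcB, fwnA and olvA) was 109 to 146 on glucose and straw, 181 to 242 after 6 h and 1477 to 1779 after 24 h of starvation. Much of that sum was fwnA, with 72.4 to 86.5 CPM on glucose and straw, 182 and 156 after 6 h and 1224 and 884 after 24 h. The 7 did not all rise. At 24 h wetA had 12.5 and 4.86 CPM, against 4.72 to 15.5 on glucose and straw, while each of the others was highest in the 24 h libraries. None of the 7 was at 0 on glucose or at 24 h, 1 or 2 of them were at 0 in each straw and 6 h starvation library, and their part in the results was not tested either. The hyphal genes actA and gpdA together had 1150 to 2451 CPM on glucose and straw and 773 to 1573 in starvation. The 2 genes differed. For actA the values were 414 to 757 on glucose and straw and 431 to 789 in starvation, and for the glycolytic gene gpdA 678 to 1695 and 262 to 784. In bulk mycelium, fewer hyphae with a transcript and less transcript per hypha cannot be told apart.

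The 119 genes took 6.13 and 6.01% of the reads on genes in glucose A and B, and 3.28 and 3.63% in straw A and B. In starvation they took 0.358 and 0.409% at 6 h, and 0.319 and 0.269% at 24 h. A single gene, An08g05640, held 24.6% of these reads in glucose A and 11.6% in straw B. Without it the shares were 4.63 and 4.92% on glucose, 2.69 and 3.21% on straw and 0.246 to 0.363% in starvation. The rule itself sets a separation of these sums, with or without any single gene. The median read count per gene of the module was 57 to 138 in the glucose and straw libraries and 2 to 7 in the starvation libraries.

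The margin ran from 2.004 to 20.2 with a median of 2.71. It was at least 3 in 49 genes, at least 5 in 24 and at least 10 in 7. The 3 genes just inside the threshold were tigA (2.004), An11g06590 (2.008) and An01g07980 (2.014), and the 3 just outside were An16g08290 (1.993), An02g01480 (1.989) and An11g11270 (1.970). As the rule sets a floor on these libraries, their level is part of the selection, with a median over the glucose and straw libraries of 3.88 RPKM (reads per kilobase of gene and per 1000000 reads of the library) against 0.346 for the 11978 genes with any read. Their gene models were of ordinary length, with a median of 1162 bases against 1165. The lowest of the glucose and straw libraries was straw A for 47 genes, straw B for 32, glucose B for 22 and glucose A for 18. The highest starvation library was 6 h A for 46, 6 h B for 38, 24 h A for 21 and 24 h B for 14.

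**Figure D1:**
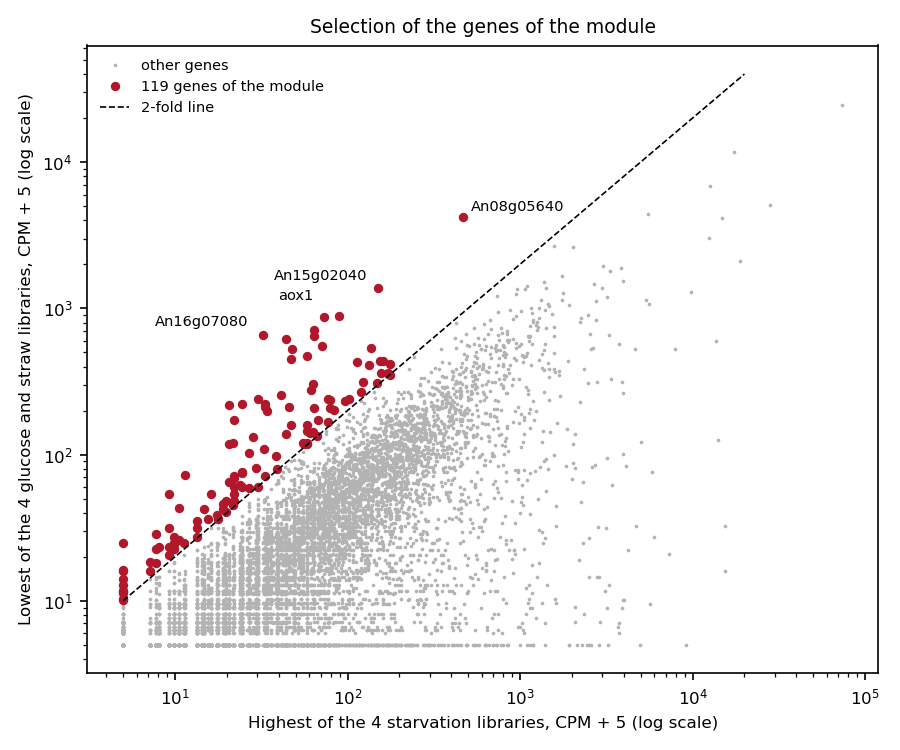
Each point is a gene, placed by its highest CPM + 5 among the 4 starvation libraries (x axis, log scale) and its lowest CPM + 5 among the 4 glucose and straw libraries (y axis, log scale), with the 119 genes of the module in red above the dashed 2-fold line. An08g05640 stands apart in level at the upper end, and An16g07080 has the largest distance from the line, a margin of 20.2.

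The widest separation was that of An16g07080, which carries no annotation in the tables used. It had 867 and 654 CPM on glucose, 1637 and 2312 on straw, 27.6 and 19.5 after 6 h and 15.6 and 0 after 24 h of starvation. Every straw value was above both glucose values, and the starvation libraries lay far below. An18g01780 had 368 and 214 CPM on glucose and 271 and 305 on straw, with no read in 6 h starvation B or 24 h starvation B and 6.36 and 15.6 CPM in the other starvation libraries. Of the 119 genes, 10 had no read in any starvation library. The best covered of these, An02g13460, had 118 and 140 CPM on glucose and 20.0 and 31.7 on straw, pooled at least 35.4-fold higher than starvation set to a floor of 3 reads over its 4 libraries. The other 9 had 22 to 103 reads in the glucose and straw libraries together, with bounds of at least 3.52-fold to at least 16.5-fold. Such bounds cover counting error only.

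Measured per length, the leading genes of the module included a short gene model, several genes without annotation, and the annotated aox1 and An03g06410. An15g02040, with a model of 282 bases, had the highest mean over the glucose and straw libraries, 186 RPKM. Its level was 159 and 169 RPKM on glucose, 95.3 and 323 on straw, 4.76 and 9.21 after 6 h and 7.47 and 6.06 after 24 h of starvation. The straw duplicates lay on both sides of the glucose values. An08g05640 followed with a mean of 74.8 RPKM and An16g07080 with 72.6. The next 7 were An01g13060, An03g06410, An02g06820, An18g04090, aox1, An14g03080 and a gene model without a CBS identifier, at 27.3 to 60.8 RPKM.

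A function could be named for 28 of the 119 genes: 7 by a gene symbol (niaD, gdhA, aox1, citA, icdA, aglB and tigA), 16 by a description in the study's gene table and 6 by its Gene Ontology (GO) terms, with gdhA having both a symbol and GO terms. The description table at hand covered 1999 genes, 22 of them in the module, and 91 genes of the module are given here without a function. By role, 6 of the 28 belonged to nitrogen assimilation and uptake, 6 to sterol metabolism, 6 to respiration and the citric acid cycle, and 3 to sugar uptake, sugar release or secretion. The remaining 7 were of other kinds.

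The nitrogen genes included the entry points of nitrate and ammonium. niaD (An08g05610) encodes nitrate reductase, the first step of nitrate assimilation. It had 1959 and 1187 CPM on glucose, 834 and 612 on straw, 23.3 and 27.9 after 6 h and 37.5 and 38.9 after 24 h of starvation. Its margin of 14.1 was the second of the module, and the straw values lay below both glucose values. gdhA (An04g00990) encodes the NADP-dependent glutamate dehydrogenase, which joins ammonium to 2-oxoglutarate. It had 1449 and 1864 CPM on glucose, 559 and 550 on straw, 65.7 and 61.4 after 6 h and 18.7 and 19.4 after 24 h of starvation, 4 levels without any overlap. An04g06380, with the GO term for aspartate:2-oxoglutarate aminotransferase, which passes the amino group between glutamate and aspartate, had 1320 and 1275 CPM on glucose, 426 and 356 on straw and 72.9 to 151 in starvation.

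Genes of urea and amino acid use were kept at lower levels. An01g03550, a putative urease, had 209 and 154 CPM on glucose, 180 and 232 on straw and 23.3 to 41.9 in starvation, with glucose and straw overlapping. An01g03790, whose orthologs transport urea, was read thinly, with 113 and 30.3 CPM on glucose, 62.1 and 22.5 on straw and only 2 reads in starvation. An01g09730, with an amino acid transporter domain, had 282 and 113 CPM on glucose, 75.4 and 78.6 on straw and 10.6 to 24.3 in starvation. The description table held 2 more genes of urea breakdown, chosen for comparison after their values were seen. The urea carboxylase gene An01g13810 had 430 to 804 CPM in starvation against 324 and 410 on glucose, and An02g01610, whose orthologs have urease activity, had 31.2 to 58.3 CPM in starvation against 47.2 and 42.2 on glucose, so neither followed the module.

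Of the 6 sterol genes, An01g07000 encodes a C14 sterol reductase of ergosterol synthesis. It had 533 and 443 CPM on glucose, 588 and 761 on straw, 21.2 and 41.9 after 6 h and 15.6 and 14.6 after 24 h of starvation. Both straw values were above both glucose values. An03g06410 and An16g02930, which share the GO term sterol metabolic process and an oxidoreductase term, were at their highest on glucose. An16g02930 had 990 and 1125 CPM on glucose, 169 and 230 on straw and 5.58 to 17.0 in starvation, and An03g06410 had 1592 and 1502, 535 and 465, and 24.3 to 53.0.

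An11g02230, a monooxygenase with the same sterol term, ran the other way between the 2 carbon sources, with 290 and 270 CPM on glucose, 812 and 1213 on straw and 27.9 to 56.2 in starvation. The remaining 2 were lower in level. An01g03350, a putative C-8 sterol isomerase, had 33.7 to 85.0 CPM on glucose and straw and 2.12 to 12.5 in starvation. An02g03580, similar to Erg28p, which in yeast tethers sterol synthesis enzymes together, had 39.9 to 63.3 CPM on glucose and straw and 14.6 to 16.7 in starvation. Not every sterol gene followed the module, and genes outside it with the GO term sterol metabolic process were not compared. A sterol was named in the descriptions of 5 genes, a list narrowed after the values were seen, and 2 of these were in the module. Of the other 3, the C-22 sterol desaturase gene An01g02810 had 1.57 and 7.91 CPM on glucose, 51.0 and 64.3 on straw and 2.12 to 9.72 in starvation, An02g05150 had 23.6 to 27.6 on glucose and straw and 4.86 to 34.3 in starvation, and An01g13260 had no read.

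Of the respiratory genes, aox1 (An11g04810), encoding the alternative oxidase, stood highest with a margin of 11.9. It had 865 and 1575 CPM on glucose, 1056 and 1019 on straw, 67.8 and 47.4 after 6 h and 43.7 and 4.86 after 24 h of starvation. The straw values fell between the glucose duplicates. citA (An09g06680), encoding citrate synthase, which brings carbon into the citric acid cycle, had 483 and 750 CPM on glucose, 428 and 586 on straw and 53.0 to 148 in starvation. icdA (An02g12430), encoding isocitrate dehydrogenase, which yields 2-oxoglutarate, had 497 and 504 CPM on glucose, 433 and 1221 on straw and 62.4 to 156 in starvation. For both, glucose and straw overlapped.

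An11g09930, with GO terms for quinone cofactor synthesis, had 127 and 140 CPM on glucose, 28.8 and 26.6 on straw and 3.12 to 8.37 in starvation. An02g01720, described as a cytochrome c oxidase subunit, had 203 to 253 CPM on glucose and straw and 38.9 to 74.2 in starvation, and the F1F0-ATPase subunit gene An01g10880 had 135 to 233 and 29.7 to 55.8. The description table held 3 further F1F0-ATPase subunit genes, none in the module (An01g04630, An02g04520 and An01g04930). Their margins were 0.699 to 0.849, so the highest starvation library of each was above its lowest glucose or straw library.

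Among the sugar and secretion genes, An02g03540, whose orthologs transport glucose and mannose, had 310 and 407 CPM on glucose, 224 and 195 on straw and 21.2 to 29.2 in starvation. aglB (An02g11150), encoding an alpha-galactosidase, had 228 and 480 CPM on glucose, 430 and 307 on straw and 31.2 to 91.2 in starvation. tigA (An18g02020), encoding a protein disulfide isomerase of the endoplasmic reticulum, had 346 to 564 CPM on glucose and straw and 106 to 170 in starvation, the smallest margin of the module. Of the 7 genes of other kinds, An02g00980 (a hydrolase domain) had the largest margin, 6.39, and the rest had margins of 2.10 to 2.74. They were a lactone-specific esterase (An01g05800), a zinc-binding transcription factor (An01g07140), a carbon-sulfur lyase (An02g00970), an oxidoreductase (An02g04860), a gene with glutathione-binding orthologs (An01g09610) and a membrane protein (An01g06130), all by their descriptions or predicted domains.

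**Figure D2:**
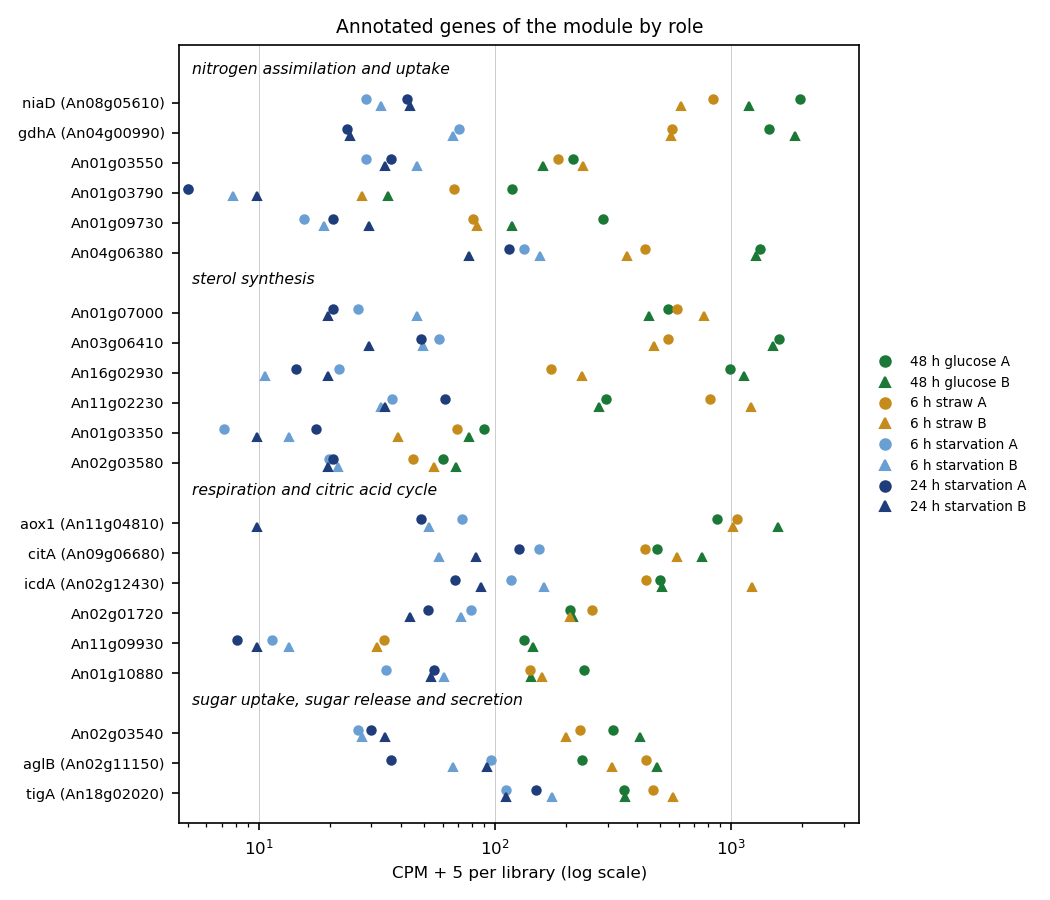
CPM + 5 (x axis, log scale) of the 21 annotated genes of the module in the 4 main roles, with 1 point per library, circles for culture A and triangles for culture B. In every row the glucose and straw points lie to the right of the starvation points, as the selection requires, while the order of straw and glucose differs from gene to gene: straw lies left of glucose for gdhA and An16g02930 and right of it for An11g02230 and An01g07000.

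The gene lists at hand touched the module in few places, and the keyword lists cover only the genes of the description table. None of 44 genes described with ribosomes, translation or tRNA, 17 with DNA replication or cell division and 21 with secretion or glycosylation was a member, tigA having no entry in that table. Neither was any of 137 carbohydrate-active enzyme genes from the study's tables, which do not hold aglB. Of these, 109 were tested and 73 were higher and 1 lower on straw than on glucose. The study chose these tables on these samples, so the count is not independent evidence of its direction. They hold genes raised on straw or in starvation over glucose, and a gene raised in starvation cannot pass the rule. Their absence from the module was thus partly set in advance. None of 5 glycolytic genes (tpiA, gpdA, pkiA, pfkA and glkA), 3 starch genes (amyA, glaA and amyR) and 3 reference genes for quantitative PCR (actA, sarA and An08g05910) was a member. The lists with members were transport (3 of 123), lipid and sterol (3 of 27), oxidoreductase (1 of 88), transcription factor (1 of 104), organic acid (citA, of 2) and nitrogen (niaD and gdhA, of 3). The share of the module among all genes was 0.771%. The keyword lists were drawn from the 1029 genes with a functional description, and 16 of those were in the module, a larger share. No test was made of these counts, and nothing is read from lists with or without members. areA, the third nitrogen gene, had no read, and no gene of the lists carried a symbol beginning with mst, hgt, ags, fks or chs. These lists were matched by symbol, and no gene carried niiA or glnA of the planned nitrogen list. The same held for hxkA, pgiA, fbaA, pgkA and enoA of glycolysis, aamA, agdA and agdB of starch, and oahA. Such genes were not looked up in any other way.

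Whether the genes differed between straw and glucose was tested with edgeR, the first comparison that the rule had not used. Calls required both an adjusted p under 0.05 and mean RPKM values at least 3-fold apart. Of the module, 111 genes had enough reads to be tested, and the 8 others had 22 to 44 reads in the glucose and straw libraries together. The selection set a floor for the level in both conditions but no direct limit on the ratio between them. A gene raised in starvation over glucose could not be a member, though such genes are among all genes tested. The shares and the median of the module beside those of all genes are therefore partly set by the selection, and nothing is read from them. On straw 21 of the 111 were lower (18.9%), against 11.2% of all 6357 genes tested, and 3 were higher (2.70%), against 10.8%. The median log2 fold change was -0.45 for the module and 0.01 for all genes, with a range of -3.11 to 2.88. At the adjusted p alone, 29 were lower and 6 higher, against 12.6 and 14.0% of all genes. Both straw libraries lay below both glucose libraries in 52 of the 111 genes (32.0% of all genes) and above them in 22 (31.4%), and 76 genes did not pass the adjusted p.

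The largest fall on straw was in An01g13060, which has no described function. It had 4349 and 4659 CPM on glucose, 410 and 610 on straw, 102 and 78.1 after 6 h and 172 and 146 after 24 h of starvation (log2 fold change -3.11, SE 0.42, adjusted p = 1.5e-05 on straw). An13g03240 fell by 2.91 on the log2 scale, from 135 and 210 CPM to 17.7 and 25.5. An02g06820 (from 2064 and 4332 to 681 and 534 CPM), An12g09120 (from 777 and 1731 to 169 and 307) and An13g01680 (from 1254 and 1767 to 235 and 343) changed by -2.38, -2.36 and -2.35. None of these carries a description of function in the tables used. The An02g06820 call was lost without glucose B and without straw B.

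Members with named roles were among the 21. Of the sterol genes, An16g02930 fell by 2.37 (SE 0.41, adjusted p = 0.00019) and An03g06410 by 1.60 (SE 0.38, adjusted p = 0.0032), while An11g02230 rose by 1.89 (SE 0.39, adjusted p = 0.0010). The other 3 did not pass, at 0.50 for An01g07000, -0.69 for An01g03350 and -0.35 for An02g03580. Of the nitrogen genes, An04g06380 fell by 1.70 (SE 0.37, adjusted p = 0.0018) and gdhA by 1.55 (SE 0.37, adjusted p = 0.0035). niaD passed the adjusted p, at -1.08 (SE 0.38, adjusted p = 0.042), but its RPKM ratio of 2.52 was under 3-fold, and An01g09730 stood likewise at -1.30 with a ratio of 2.83. Of the respiratory genes, An11g09930 fell by 2.24 (SE 0.44, adjusted p = 0.00064), while aox1 (-0.21, SE 0.46), citA (-0.25, SE 0.44) and icdA (0.76, SE 0.43) did not pass. The zinc-binding transcription factor gene An01g07140 fell by 1.99 (SE 0.39, adjusted p = 0.00068), from 1687 and 1063 CPM to 306 and 368. The gdhA call was lost without glucose B and without straw A, where the RPKM ratio came under 3-fold, and that of An03g06410 without straw A.

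The 3 genes higher on straw were An11g02230, An18g01550 and An08g08720. An08g08720 rose from 15.7 and 29.0 CPM on glucose to 95.4 and 230 on straw, with 4.24 CPM in 6 h starvation A and no read in the other starvation libraries (log2 fold change 2.88, SE 0.55, adjusted p = 0.00059). An18g01550 rose from 14.2 and 13.2 to 59.9 and 75.6 CPM, with 2.79 CPM or less in starvation (2.33, SE 0.55, adjusted p = 0.0036). Both are without a described function. Without straw B none of the 3 was called, and 17 genes were lower. An18g01550 was not called by DESeq2 either (2.30, adjusted p = 0.081). An16g07080, An18g03730 and An08g07090 passed the adjusted p in the same direction but had RPKM ratios of 2.38 to 2.70.

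**Figure D3:**
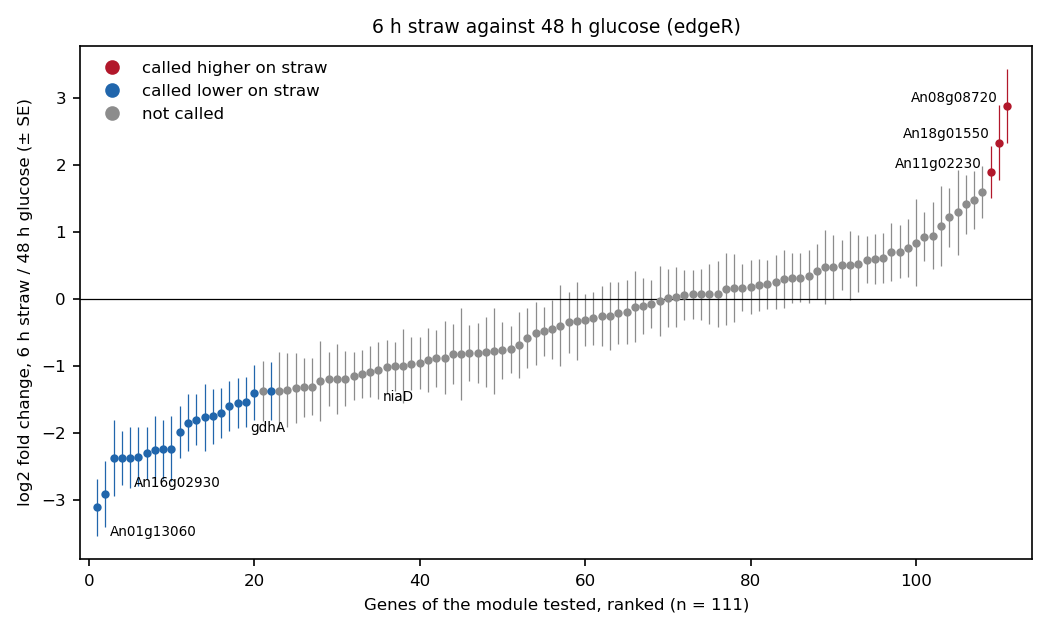
Log2 fold change of 6 h straw against 48 h glucose (y axis) for the 111 tested genes of the module, ranked along the x axis, with bars of 1 SE from edgeR. The 21 called lower are in blue, the 3 called higher in red, and 69 of the 111 estimates lie below 0.

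The second comparison that the rule had not used was that of 24 h with 6 h of starvation. The counts behind it were low, since most of the genes passed the read filter through the glucose and straw libraries, and the rule had set a ceiling on all 4 starvation values. Nothing is therefore read from the shares of the module beside those of all genes. Of the 111 genes tested 5 were lower at 24 h (4.50%; 3.13% of all genes) and none was higher (3.93% of all genes). With only the 2 starvation conditions fitted, 4542 genes passed the filter, 44 of them in the module. Of these 44, 4 were lower and 0 higher. The share of all genes called in that fit was not counted, so the 4 cannot be set beside a background. At the adjusted p alone edgeR gave the same counts, 5 and 0, against 4.17% lower and 3.93% higher. DESeq2 called 5 lower and 0 higher, and its share of all genes was not counted. At an unadjusted p under 0.05, 2 were higher (8.37% of all genes) and 19 lower (10.6% of all genes). Both 24 h libraries lay below both 6 h libraries in 32 genes (15.9% of all genes) and above them in 15 (32.5%). The median log2 fold change was -0.57 for the module and -0.08 for all genes. Scaling to total reads on genes in place of TMM factors moved the median of all genes to 0.24 and that of the module to -0.23, and the same 5 genes were called.

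The 5 genes had been low already at 6 h and were lower still at 24 h. An01g07140, the predicted transcription factor, went from 119 and 92.1 CPM to 9.36 and 14.6 (log2 fold change -3.49, SE 0.57, adjusted p = 0.00052). An02g14410, with no described function, went from 44.5 and 72.5 to 12.5 and 4.86 (-2.90, SE 0.62, adjusted p = 0.0049). An01g05800, the lactone-specific esterase gene, went from 131 and 142 to 40.6 and 29.2 (-2.25, SE 0.55, adjusted p = 0.013). An08g10030, also with no described function, went from 93.3 and 167 to 31.2 and 43.7 (-2.12, SE 0.47, adjusted p = 0.0065). gdhA changed by -2.04 (SE 0.52, adjusted p = 0.017). In none of the 5 did the starvation times overlap.

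Of these, An01g07140 and gdhA were also lower on straw than on glucose, the only 2 genes of the module called in both comparisons, which share no library. The other 3 showed no difference between straw and glucose past the test, at 0.61 for An02g14410, 0.02 for An01g05800 and 0.06 for An08g10030. The call of gdhA was lost whichever starvation library was left out and with only the 2 starvation conditions fitted (-1.96, adjusted p = 0.052), An01g05800 was lost without either 24 h library, An08g10030 without 6 h starvation B or 24 h starvation A and An02g14410 without 24 h starvation B. An01g07140 was called in all of these. The other 106 tested genes did not pass, among them niaD (0.26, SE 0.54) and aox1 (-1.43, SE 0.63).

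**Figure D4:**
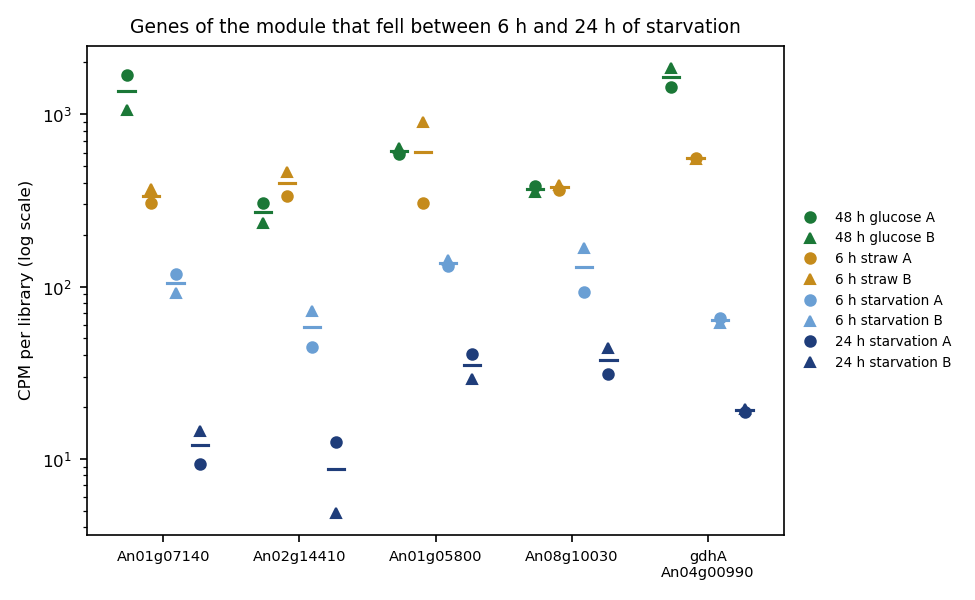
CPM per library (y axis, log scale) of the 5 genes of the module called lower at 24 h than at 6 h of starvation, with circles for culture A, triangles for culture B and a bar at the mean of each condition. gdhA and An01g07140 step down at each condition from glucose to straw to 6 h and 24 h of starvation, while the glucose and straw values of An01g05800 and An08g10030 overlap.

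As a description of what the rule selected, the median log2 fold change of the 111 genes against glucose was -3.60 at 6 h and -4.06 at 24 h of starvation. At 6 h 108 of them were lower past the same thresholds (15.0% of all genes) and at 24 h all 111 tested (17.5% of all genes). Those counts follow from the selection.

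Gene order, which the rule did not use, placed some of the genes side by side. The order was read from the RefSeq annotation of A. niger (assembly ASM285v2), in which 113 of the 119 genes could be placed. With at most 2 genes between them, 20 of the 113 fell into 9 runs, 7 of 2 genes and 2 of 3 genes, and 6 of the 11 neighbouring pairs were directly adjacent. Runs in other sets of genes were not counted, so nothing is read from the number of runs. The genes were spread over all 8 chromosomes, with 5 of 1259 protein-coding genes on chromosome V and 25 of 2556 on chromosome IV.

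The run with the highest levels joined niaD to An08g05640 and An08g05670. An08g05640 had 15063 and 10832 CPM on glucose, 5826 and 4191 on straw, 136 and 460 after 6 h and 131 and 228 after 24 h of starvation. An08g05670 had 814 and 327 CPM on glucose, 384 and 218 on straw and 5.58 to 19.4 in starvation. Pooled over the libraries of each side, the glucose and straw level was 36.5 times the starvation level for niaD and 37.0 times for An08g05640. The 4 gene models between them, 2 in each gap, had only 2, 11, 5 and 3 reads over all 8 libraries. On straw the estimates were -1.08 for niaD, -1.33 for An08g05640 (adjusted p = 0.067) and -0.89 for An08g05670 (adjusted p = 0.15), and in starvation over time 0.26, -1.03 and 0.76.

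The other run of 3 genes was An03g05170, An03g05200 and An03g05210. An03g05170 had 996 and 853 CPM on glucose, 402 and 415 on straw and 77.8 to 128 in starvation, and An03g05200 had 909 and 858, 264 and 329, and 48.6 to 114. An03g05210, directly after it, had 134 and 163 CPM on glucose, 213 and 225 on straw and 15.6 to 39.1 in starvation. The first 2 were lower on straw (-1.14, adjusted p = 0.024, RPKM ratio 2.51, not called, and -1.54, adjusted p = 0.0040, called except without straw A), and the third stood at 0.59. Between the first 2 lay An03g05180, with 44.1 and 68.6 CPM on glucose and 3.12 or less elsewhere, and An03g05190, with 142 and 123 CPM at 6 h of starvation against 33.0 and 21.1 on glucose.

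The pairs of the remaining runs were An01g05800 with An01g05810, An02g00970 with An02g00980, An02g14410 with An02g14430, An13g02220 with An13g02230, An14g02440 with An14g02460, An14g02540 with An14g02550, and An16g08250 with An16g08260. Levels within a pair could be far apart. An14g02460 had 643 to 1304 CPM on glucose and straw against 11.2 to 18.5 for An14g02440, and An02g00980 had 206 to 579 against 6.66 to 30.3 for An02g00970. Some pairs rested on a gene near the floor. An16g08250, An14g02550 and An14g02440 had 23, 24 and 42 reads over all 8 libraries and were among the genes not tested. The strand on which reads were counted is not given in the sources used here, so reads of overlapping neighbours could not be told apart.

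**Figure D5:**
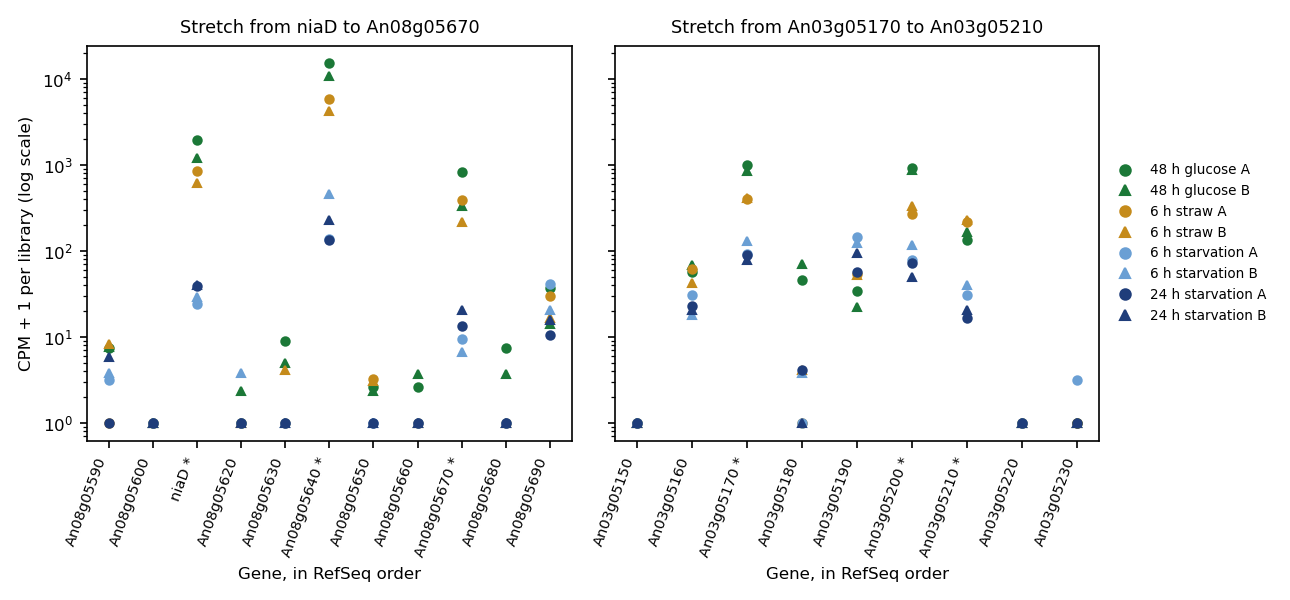
CPM + 1 per library (y axis, log scale) along 2 stretches of neighbouring genes in RefSeq order (x axis), with genes of the module marked by an asterisk, circles for culture A and triangles for culture B. In the left stretch niaD, An08g05640 and An08g05670 rise above the gene models between them, which have almost no reads. An08g05690 at its end has 9.36 to 40.3 CPM, and in 6 h starvation A it lies above niaD and An08g05670. In the right stretch An03g05190 is higher in starvation than on glucose between genes of the module that are lower.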

How the data were processed

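Each deposited file holds, for 15431 gene models and 5 summary rows, read counts and RPKM. The counts were made by the authors from rRNA-depleted SOLiD libraries with LifeScope and HTSeq, keeping uniquely aligned forward reads on the Aspni5 models; the strand setting is not given in the sources used here. The deposited RPKM divides these counts by gene length and by all reads of the library, including those on no gene, so its ratios move with the share of reads on genes.

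The summary rows were left out (96.6 to 98.6% of all reads). CPM was computed over gene rows. Counts of all 8 libraries were fitted together with edgeR 4.0.16 in R 4.3.3: filterByExpr by condition, TMM factors (0.896 to 1.16), common dispersion 0.0889, 4 residual degrees of freedom, the quasi-likelihood test, and Benjamini-Hochberg adjustment over 6357 genes. SE is the log2 fold change over the square root of F. Calls needed an adjusted p under 0.05 and mean RPKM at least 3-fold apart, or the p alone where the control had no read. All p-values given are adjusted p-values of edgeR unless DESeq2 is named.

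The members and gene lists were chosen with earlier results of these data known. Named genes were the 10 with the highest RPKM, the 10 with the largest margin, those at the threshold, those called, those with a symbol or description, and those that neighbour each other; other genes named for comparison were chosen after their values were seen. Keyword lists were matched to the study's descriptions, which cover part of the genes. Alternatives were DESeq2 1.42.0, RLE factors, reads on genes alone, no read filter, each threshold alone, only the 2 conditions, the replicate letter as a block, each library left out, and, for the selection, other added amounts, thresholds and scalings. On simulated data with 50 genes per class, 74.0% of 4-fold rises and 40.0% of 4-fold falls were recovered for straw against glucose. For 24 h against 6 h of starvation the shares were 74.0 and 42.0%. Recovery at the read counts of the module, a median of 2 to 7 reads per gene in the starvation libraries, was not tested.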

Additional observations from a re-analysis of the deposited data

How the results depend on the processing

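The number of genes selected depended on the rule. Adding 1 to CPM gave 234 genes and adding 20 gave 64, a margin of 1.5 gave 223 and one of 3 gave 49, and scaling to the reads of all rows gave 223, of which 116 were in the module. TMM-scaled CPM gave 118, with 111 shared, and leaving out each library gave 136 to 177. For straw against glucose, the 24 calls became 17 to 27 when a library was left out and 21 to 35 under the other alternatives, with 0 to 6 genes higher. For 24 h against 6 h of starvation, the 5 calls became 4 to 5 under the alternatives that kept both cultures, with 0 genes higher. When a starvation library was left out, calls were lost. Without 6 h starvation A or without 24 h starvation B, not every call was lower, so the single direction depended on both cultures. Whether the letters A and B mark shared cultures is not given in the sources used here. Deviations of same-lettered cultures correlated at 0.02 for straw with glucose, 0.19 for the starvation times, 0.28 for straw with 6 h starvation and -0.07 to 0.01 for the other 3 pairs of conditions, and the cultures were treated as unpaired. With the letter as a replicate block, 25 genes were called for straw and 5 for starvation, with 24 and 5 shared. Of 290 values of single called genes under alternatives, 257 kept the call, 33 lost it and none changed sign. In starvation a gene of the module had a median of 2 to 7 reads per library, and 1 read in 24 h starvation B was 4.86 CPM.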
